A study of Mus musculus and Homo sapiens with 28 samples.

Results

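Mouse Renca tumours carrying both the SETD2 knockdown label and the VE822 treatment label were compared with tumours carrying neither. The comparison takes the 5 libraries labelled SETD2 KD VE822 against the 7 labelled WT untreated, which are 12 of the 24 mouse libraries and of the 28 libraries in the series, over all 46078 gene rows of the deposited table. Renca is a mouse renal carcinoma line. Here it was implanted in Matrigel under the skin of the back, and treatment began once a tumour measured about 100 mm3. VE822, an inhibitor of the kinase ATR, was given by mouth at 60 mg/kg on 5 days a week, and the untreated mice are described as untreated, with no vehicle named. Both labels differ between the 5 and the 7 libraries, so the remaining mouse groups were used to read each label on its own. These were 6 libraries labelled WT VE822 and 6 labelled SETD2 KD untreated. The sources used here do not give the knockdown method, the number of clones, or the strain, sex and age of the mice. The labels name kidney as the tissue, although the tumours grew subcutaneously.

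ATR is the kinase that responds to stalled replication forks, and it signals largely through CHK1 to hold back the cell cycle and protect the forks. SETD2 is the methyltransferase that places the third methyl group on lysine 36 of histone H3 along transcribed genes, and it is often lost in clear cell renal carcinoma. DNA that reaches the cytosol is sensed by cGAS, which acts through STING to induce interferon, and the title of the series names cGAS signalling as its subject.

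Expression values were the deposited regularised log values (rlog), a log2-scale transform of read counts that shrinks differences of weakly counted genes towards 0. A difference of 1 is a 2-fold change, and differences of weakly counted genes are understated. The values are not corrected for gene length, so levels are compared between libraries and not between genes. A gene was called when its Benjamini-Hochberg adjusted p from limma was under 0.05 over the 15916 genes with a mean rlog of at least 3. Errors of differences are standard errors from this model, brackets hold 95% intervals, and n is 5 and 7 libraries throughout unless other groups are named. The labels number animals but do not state how libraries were made from them, so the spread behind each p-value is that between libraries, which may be technical. In whole tumours, fewer cells of a type and less RNA per cell cannot be told apart.

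Setd2, the gene named by the knockdown label, was examined first. Its rlog was 9.62, 9.42, 9.75, 9.96 and 9.86 in the 5 libraries labelled SETD2 KD VE822, against 10.74 to 10.91 (median 10.79) in those labelled WT untreated. All 5 lay below all 7, and Setd2 fell by 1.11 ± 0.10 on the log2 scale (adjusted p = 4.75e-08). The same gene did not follow the genotype label among untreated tumours, where it averaged 10.81 ± 0.07 in SETD2 KD libraries (SD, n = 6) and 10.83 ± 0.07 in WT libraries (SD, n = 7). In WT VE822 libraries it averaged 10.03 ± 0.29 (SD, n = 6), which is 0.80 below WT untreated (adjusted p = 1.2e-06). The difference of SETD2 KD VE822 from WT VE822 was -0.31 [-0.52, -0.10] and was not called (adjusted p = 0.225). The Setd2 fall thus accompanied the VE822 label in both genotypes, and groups are named below only by what their libraries are labelled. None of the other 8 genes tested in the list headed H3 lysine 36 methyltransferases was called. The activity of each on that residue was not examined. Setd5 had the most positive difference, 0.11.

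Between SETD2 KD VE822 and WT untreated, 3890 of 15916 genes were called, or 24.4%. Of these, 1922 genes were higher (12.1%) and 1968 were lower (12.4%). Most changes were small. The median absolute difference of the called genes was 0.334 log2 units and 2890 of them changed by under 0.5. Changes of at least 2-fold were mostly rises, with 206 genes higher and 35 lower. The 5 and the 7 libraries did not overlap at all for 1413 genes (8.88%), of which 635 were higher (3.99%) and 778 lower (4.89%). Once each library's chromosome medians were subtracted, the called genes split into 2203 higher and 1474 lower.

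The same 5 libraries differed little from WT VE822. Only 2 genes were called in that comparison (0.0126%), while 2031 had an unadjusted p under 0.05. Against SETD2 KD untreated, 3540 genes were called (22.2%). The WT VE822 libraries differed from WT untreated at 5530 genes (34.7%), of which 2737 were higher (17.2%) and 2793 lower (17.5%). That comparison uses the same 7 WT untreated libraries, so its values below are given side by side with those of SETD2 KD VE822 and are not independent of them. Between SETD2 KD untreated and WT untreated, 0 genes were called (0.0%) by limma, with 512 at an unadjusted p under 0.05. The interaction of the 2 labels, which asks whether the double label departs from the sum of the single labels, was called for 0 genes (0.0%) by limma, with 1452 at an unadjusted p under 0.05 and a smallest adjusted p of 0.424.

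Of the 12 libraries, 1 in each group stood apart. On the second principal component, which held 18.9% of the variance, SETD2 KD VE822 replicate 4 lay at -43.9 while the other 4 lay between 2.4 and 15. WT untreated replicate 1 lay at -19.1 while the other 6 lay between -4.2 and 4.6. On the first component, with 40.2% of the variance, the other 4 SETD2 KD VE822 libraries lay between -24.3 and -16.9, replicate 4 at -0.2 and the WT untreated libraries between 9.5 and 21.1. Values for these libraries are given throughout, and counts without them where they change a result.

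The 15 largest rises and falls described first are those of called protein-coding genes whose groups did not overlap. The rises were led by Igf2, the imprinted foetal growth factor. Its rlog was 10.82, 11.35, 11.14, 6.37 and 11.34 in SETD2 KD VE822 replicates 1 to 5, against 5.76 to 6.03 (median 5.94) in WT untreated. The groups did not overlap, but replicate 4 lay within 1 log2 unit of the WT untreated libraries while the other 4 lay near 11. The rise was 4.28 ± 0.56 (adjusted p = 8.28e-06) and 5.24 without replicate 4. Igf2 lies on chromosome 7 at 142650766 to 142666816 on the minus strand (GRCm38), where an antisense gene overlaps it, and the sources used here do not say how the authors treated strand. In WT VE822 libraries Igf2 was 4.34 above WT untreated.

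Aoc1, the diamine oxidase that degrades histamine, showed the same arrangement. It stood at 9.21, 9.54, 9.31, 5.41 and 9.50 in SETD2 KD VE822, against 4.98 to 5.12 in WT untreated, a rise of 3.56 ± 0.47 (adjusted p = 8.36e-06). Kif1a, an axonal transport kinesin, stood at 10.49, 10.12, 10.77, 7.44 and 10.37, against 6.68 to 7.22, and rose by 2.90 ± 0.36. In both genes 4 libraries formed a tight high cluster and replicate 4 sat just above the WT untreated range.

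Cd28, the costimulatory receptor of T cells, belonged with these genes by its values. It was 7.58, 7.69, 7.95, 5.44 and 7.97 in SETD2 KD VE822, against 4.68 to 5.02 (median 4.86) in WT untreated, a rise of 2.47 ± 0.30 (adjusted p = 2.92e-06). Cd2, an adhesion receptor of T cells, spread less, at 6.37, 6.61, 6.66, 6.03 and 6.41, against 5.04 to 5.45. Replicate 4 was the lowest SETD2 KD VE822 library for both genes and lay about as far above the WT untreated mean in each, by 0.59 for Cd28 and 0.72 for Cd2. The other 4 libraries lay above that mean by 2.95 for Cd28 and 1.21 for Cd2 on average.

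Other rises of this kind were Ppargc1a, the coactivator of mitochondrial biogenesis (2.36 ± 0.24), Ndufa4l2, a hypoxia-inducible mitochondrial protein (2.23 ± 0.29), and Abca13, an ABC transporter (2.03 ± 0.26). Atp13a4, a transport ATPase, rose by 2.73 ± 0.28, and Tceal7, a member of the transcription elongation factor A-like family, by 2.69 ± 0.43. Serpinb9e, a serpin, rose by 1.85 ± 0.22, Iglon5, a neural adhesion molecule, by 1.71 ± 0.20, and Tspan10, a tetraspanin, by 1.66 ± 0.31. Among the 15 largest rises of called protein-coding genes without overlap, replicate 4 was the lowest of the 5 SETD2 KD VE822 libraries in 12.

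The 3 exceptions were Cxcl9, Scin and Serpina3g. Cxcl9, a chemokine induced by interferon-gamma that draws T cells, was 10.15, 10.86, 11.07, 9.49 and 9.05 in SETD2 KD VE822. In WT untreated it ranged from 6.32 to 8.97 (median 6.62), and the highest of these was replicate 1. The rise was 3.27 ± 0.50 (adjusted p = 5.08e-05). Scin, which encodes the actin-severing protein scinderin, was 8.35, 6.47, 6.25, 8.33 and 7.28, against 5.11 to 5.51, so replicates 1 and 4 were the highest. Its rise was 2.01 ± 0.30. Serpina3g, a serine protease inhibitor, rose by 1.91 ± 0.35, with its lowest value of 8.60 in replicate 5.

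**Figure D1:**
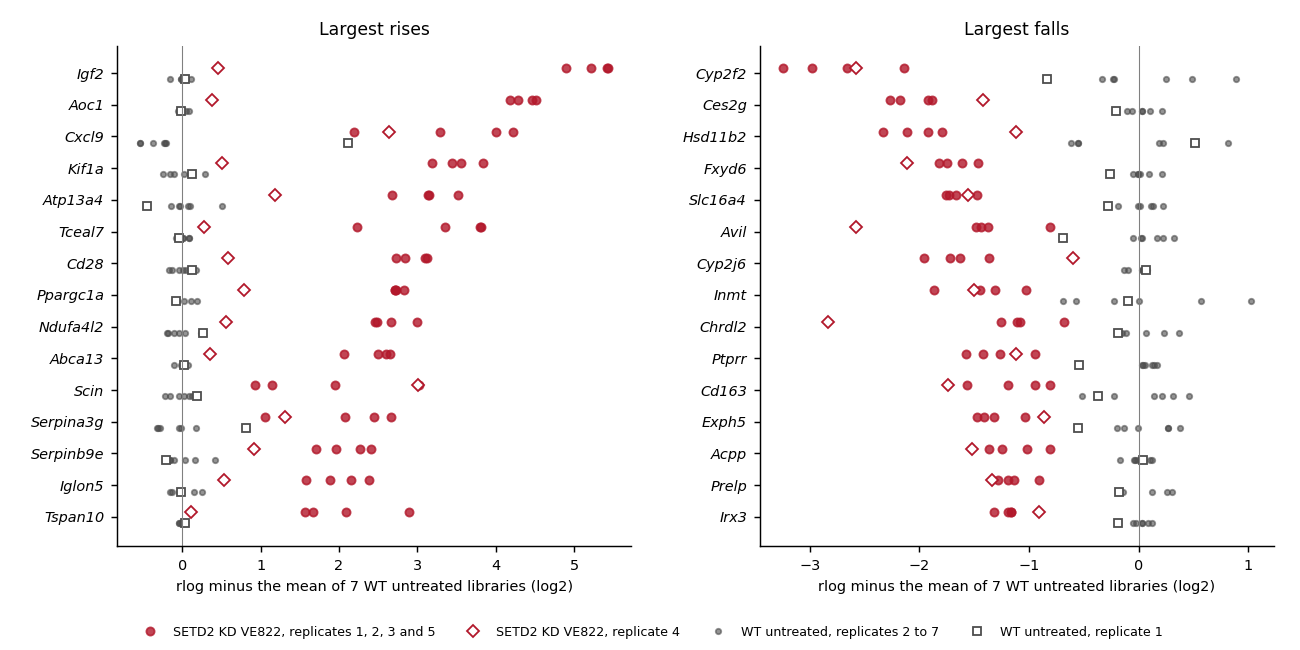
The 15 largest rises and the 15 largest falls among called protein-coding genes whose 5 and 7 libraries do not overlap. The x axis is the rlog of each library minus the mean of the 7 WT untreated libraries (log2 units). Filled red points are 4 SETD2 KD VE822 libraries, the open diamond is replicate 4, grey points are WT untreated libraries and the open square is its replicate 1. In 12 of the 15 rises the diamond is the lowest SETD2 KD VE822 value, and for Igf2, Aoc1 and Kif1a it sits close to the grey points.

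The largest falls included enzymes of drug and steroid metabolism. Cyp2f2, a cytochrome P450, was 6.43, 6.95, 6.11, 6.51 and 5.85 in SETD2 KD VE822, against 8.26 to 9.98 (median 8.87) in WT untreated, and fell by 2.72 ± 0.27 (adjusted p = 1.79e-07). Ces2g, a carboxylesterase, fell by 1.93 ± 0.14, and Hsd11b2, the enzyme that inactivates glucocorticoids in the distal nephron, fell by 1.85 ± 0.23. Cyp2j6, another cytochrome P450, fell by 1.45 ± 0.17. Inmt, an indolethylamine methyltransferase, fell by 1.43 ± 0.23.

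The smallest adjusted p of all genes belonged to Slc16a4, of the monocarboxylate transporter family. It was 5.43, 5.68, 5.49, 5.60 and 5.40 in SETD2 KD VE822, against 6.88 to 7.38 (median 7.17) in WT untreated, a fall of 1.64 ± 0.09 (adjusted p = 9.05e-12). The 5 libraries lay close together, replicate 4 among them. Fxyd6, a regulator of the sodium pump, fell by 1.75 ± 0.10. Irx3, a transcription factor of nephron segment identity, was 8.19, 8.16, 8.03, 8.44 and 8.19, against 9.16 to 9.47, and fell by 1.15 ± 0.08.

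Among the remaining leading falls, Chrdl2, a chordin-like antagonist of bone morphogenetic proteins, and Avil, the actin-binding protein advillin, had replicate 4 more than 1 log2 unit below the other 4 libraries. Chrdl2 was 10.82, 10.39, 10.42, 8.67 and 10.25, against 11.30 to 11.87, and its fall was 1.39 ± 0.23, or 1.03 without replicate 4. Avil was 9.79 in replicate 4 and 10.89 to 11.56 in the others, against 11.68 to 12.69 in WT untreated, a fall of 1.54 ± 0.20. The other leading falls were Ptprr, a receptor phosphatase (-1.27 ± 0.12), Cd163, the haemoglobin scavenger receptor of macrophages (-1.25 ± 0.21), and Exph5, an effector of vesicle transport (-1.22 ± 0.13). Acpp, an acid phosphatase (-1.20 ± 0.10), and Prelp, a small leucine-rich proteoglycan (-1.17 ± 0.18), completed them. Replicate 4 was the lowest of the 5 libraries in 6 of the 15 leading falls and the highest in 5.

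All 15 leading rises and all 15 leading falls were also called in WT VE822 against WT untreated. The 95% interval of SETD2 KD VE822 minus WT VE822 included 0 for all 15 rises and for 11 of the 15 falls. The intervals that excluded 0 were negative, for Ces2g (-0.34 [-0.64, -0.04]), Fxyd6 (-0.37 [-0.59, -0.15]), Slc16a4 (-0.26 [-0.44, -0.07]) and Prelp (-0.68 [-1.06, -0.30]), and none of these was called after adjustment. Picking falls by low SETD2 KD VE822 values favours negative differences from WT VE822. Over all genes, 2031 of 15916 had an unadjusted limma p under 0.05 in that comparison.

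Replicate 4 was then set against the other 4 SETD2 KD VE822 libraries over all called genes that changed at least 2-fold. These genes were called with replicate 4 included, so the counts are a description. For the 206 rises, its median difference from the WT untreated mean was 35.5% of the mean difference of the other 4. The same median for replicates 1, 2, 3 and 5 lay between 112% and 134%. Replicate 4 carried under 50% of the others' rise in 113 of 206 genes, against 36 for replicate 5 and 1 to 4 for the other replicates. It fell inside the range of the 7 WT untreated libraries in 61 of the 206 genes (29.6%). For the 35 falls of at least 2-fold the median was 93.7%, and replicate 4 carried under 50% in 8 genes, as did replicate 1. Over all called genes of any size the contrast between rises and falls was smaller. Replicate 4 carried under 50% of the others' difference in 48.8% of the 1922 rises and 37.6% of the 1968 falls, with medians of 52.4% and 78.0%. Setd2 itself was low in all 5 libraries.

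**Figure D2:**
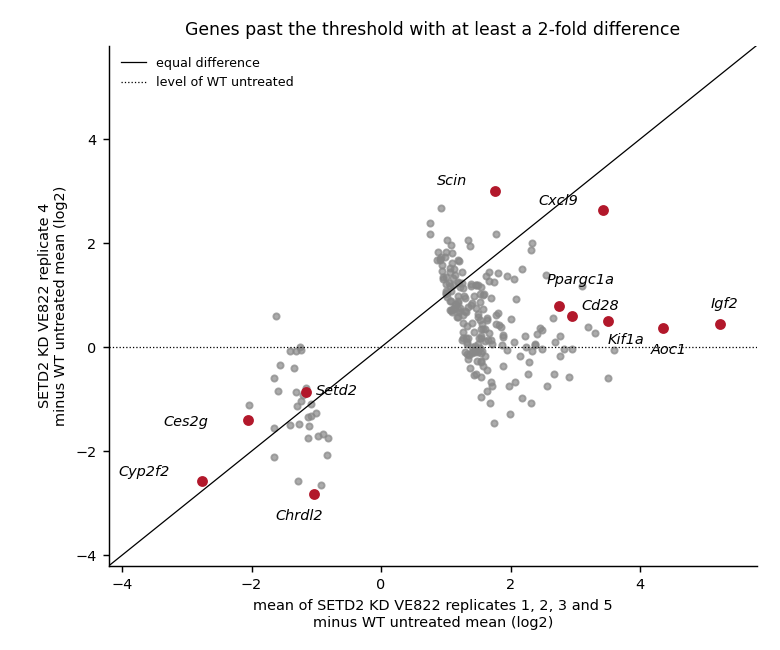
Each point is 1 of the 241 genes that passed the threshold with at least a 2-fold difference. The x axis is the mean of SETD2 KD VE822 replicates 1, 2, 3 and 5 minus the WT untreated mean, and the y axis is replicate 4 minus the same mean (both log2 units). The solid line marks equal differences and the dotted line the level of WT untreated. Igf2, Aoc1, Kif1a and Cd28 lie far right near the dotted line, Cxcl9 lies nearer the solid line, Scin above it, and Cyp2f2 and Setd2 close to it.

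Neither Cgas nor Tmem173 was called with all libraries in the fit. Cgas, which encodes the sensor that makes the messenger cGAMP, was 5.82, 6.21, 5.91, 6.60 and 6.10 in SETD2 KD VE822, against 5.77 to 6.28 (median 5.94) in WT untreated. The groups overlapped and the difference of 0.18 ± 0.12 was not called (adjusted p = 0.314). Tmem173, the gene for STING, was 11.68, 11.83, 11.70, 11.24 and 11.62, against 11.44 to 11.65, with a difference of 0.09 ± 0.08 (adjusted p = 0.478). Replicate 4 was the lowest of all 12 libraries for this gene, and without it the difference was 0.18 and was called (adjusted p = 0.0388).

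Of the 13 genes listed for cGAS-STING sensing, 1 was higher (7.69%) and 3 were lower (23.1%), against 12.1% and 12.4% of all genes. Zbp1, a sensor of left-handed nucleic acid that is itself induced by interferon, rose by 1.05 ± 0.23 (adjusted p = 0.00186), with 9.59 in replicate 5 and 10.79 to 11.16 in the others, against 9.38 to 10.26. Slc19a1, a folate carrier that also imports cyclic dinucleotides, fell by 0.46 ± 0.11. Zdhhc1 fell by 0.28 ± 0.08 and Tbk1, the kinase downstream of STING, by 0.16 ± 0.05. Slc19a1 and Tbk1 lie on chromosome 10 and Zdhhc1 on chromosome 8, whose genes were lower as a whole, on chromosome 10 in 4 of the 5 libraries. With chromosome medians removed Tbk1 stood at 0.02, and neither Slc19a1 nor Zdhhc1 was called.

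Among nucleases that limit self nucleic acids, Dnase1l3, a secreted DNase, rose by 1.54 ± 0.21 (adjusted p = 1.1e-05), with 8.88 in replicate 4 and 9.81 to 10.35 in the others, against 7.70 to 8.67. Of the 11 genes tested in this list 2 were higher and 2 lower (18.2% each, against 12.1% and 12.4% of all genes). The other called members were subunits of RNase H2, with Rnaseh2c at 0.28 ± 0.08, Rnaseh2a at -0.26 ± 0.08 and Rnaseh2b at -0.24 ± 0.08. Both lower calls were lost without SETD2 KD VE822 replicate 4 or 5 and with chromosome medians removed, where 5 members were higher and 0 lower. Without WT untreated replicate 1 the count higher was 4. Ifnb1, the gene for interferon beta, was below the filter, with rlog 0.64 to 0.89 in SETD2 KD VE822 and 0.61 to 0.77 in WT untreated. Of 4 interferon receptor and kinase genes tested in its list, Jak1 fell by 0.35 ± 0.05 (adjusted p = 9.07e-06), Ifnar1 was 0.12 ± 0.04 higher (adjusted p = 0.0445), and Ifnar2 and Tyk2 were not called.

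Type I interferon-stimulated genes were higher in part. Of 38 tested, 14 were called higher and 0 lower, against 12.1% and 12.4% of all genes, and the list median was 0.21 against 0.004 over all genes. Leaving out SETD2 KD VE822 libraries 1 at a time gave 9 to 17 higher, the fewest without replicate 3, and 10 without replicate 4. Bst2, the antiviral tetherin, was 12.17, 12.33, 12.16, 11.57 and 11.62, against 11.04 to 11.67, a rise of 0.72 ± 0.12. Usp18, the deconjugase of ISG15, rose by 0.55 ± 0.11, and Oas1a, an oligoadenylate synthetase, by 0.28 ± 0.06.

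Isg15 itself was 11.64, 11.56, 11.37, 11.35 and 11.06, against 11.15 to 11.51, and was not called (0.10 ± 0.09, adjusted p = 0.449). Irf9, the DNA-binding subunit of the interferon-stimulated transcription complex, was 10.37, 10.53, 10.60, 10.36 and 10.24, against 10.03 to 10.22, and rose by 0.29 ± 0.07 (adjusted p = 0.00341). In WT VE822 the 38 genes had 6 calls higher and 2 lower with a median of 0.015. The difference of SETD2 KD VE822 from WT VE822 was positive for 37 of the 38, against 7823 of the 15916 genes tested, yet 0 of the 38 were called in that comparison. These genes are induced together, so the 37 are not 37 separate observations.

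Genes induced by interferon-gamma had the highest median difference among the immune lists. Of 21 tested, 18 were higher (85.7%) and 1 was lower (4.76%), against 12.1% and 12.4% of all genes. The list median was 1.19. In WT VE822 11 were higher and 1 lower, with a median of 0.64. Gbp4, a guanylate-binding GTPase, was 9.26, 9.90, 10.12, 9.06 and 8.25 in SETD2 KD VE822, against 6.61 to 8.36 (median 6.87), and rose by 2.27 ± 0.35. Replicate 5 lay inside the WT untreated range, whose top value came from replicate 1. Cxcl10, a chemokine for activated T cells, was 8.34, 8.74, 9.19, 8.96 and 7.98, against 6.21 to 8.06 (median 6.56), and rose by 1.85 ± 0.29 (adjusted p = 6.37e-05).

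For 1 of the 21 genes all 5 libraries lay above all 7, and for 1 they lay below. Over all genes the shares were 3.99% and 4.89%, so non-overlap in this list was close to that of all genes. Ifng, the cytokine gene itself, was below the filter at 2.15 to 2.88 in SETD2 KD VE822 and 2.04 to 2.18 in WT untreated. The 1 member that fell was Ifngr1, a chain of its receptor, at 11.83, 11.72, 11.71, 12.34 and 11.76, against 12.34 to 12.53 (median 12.41). Its fall was 0.55 ± 0.08 (adjusted p = 1.88e-05), and replicate 4 lay level, to 2 decimals, with the lowest WT untreated library. Ifngr1 also lies on chromosome 10, and with chromosome medians removed its difference was -0.37 (adjusted p = 4.21e-05).

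The mean rlog over the 21 tested genes of the interferon-gamma list was 9.93, 10.22, 10.52, 9.65 and 9.24 in SETD2 KD VE822, 8.72 to 10.03 in WT VE822 and 8.53 to 9.61 in WT untreated (median 8.57). The top WT untreated value, again replicate 1, exceeded replicate 5 of SETD2 KD VE822. The other 6 WT untreated libraries reached at most 8.80. Of the same 21 genes, 19 were more positive in SETD2 KD VE822 than in WT VE822, against 7823 of the 15916 genes tested. In that comparison 0 of the 21 were called. They too are induced together, so the 19 are not 19 separate observations.

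**Figure D3:**
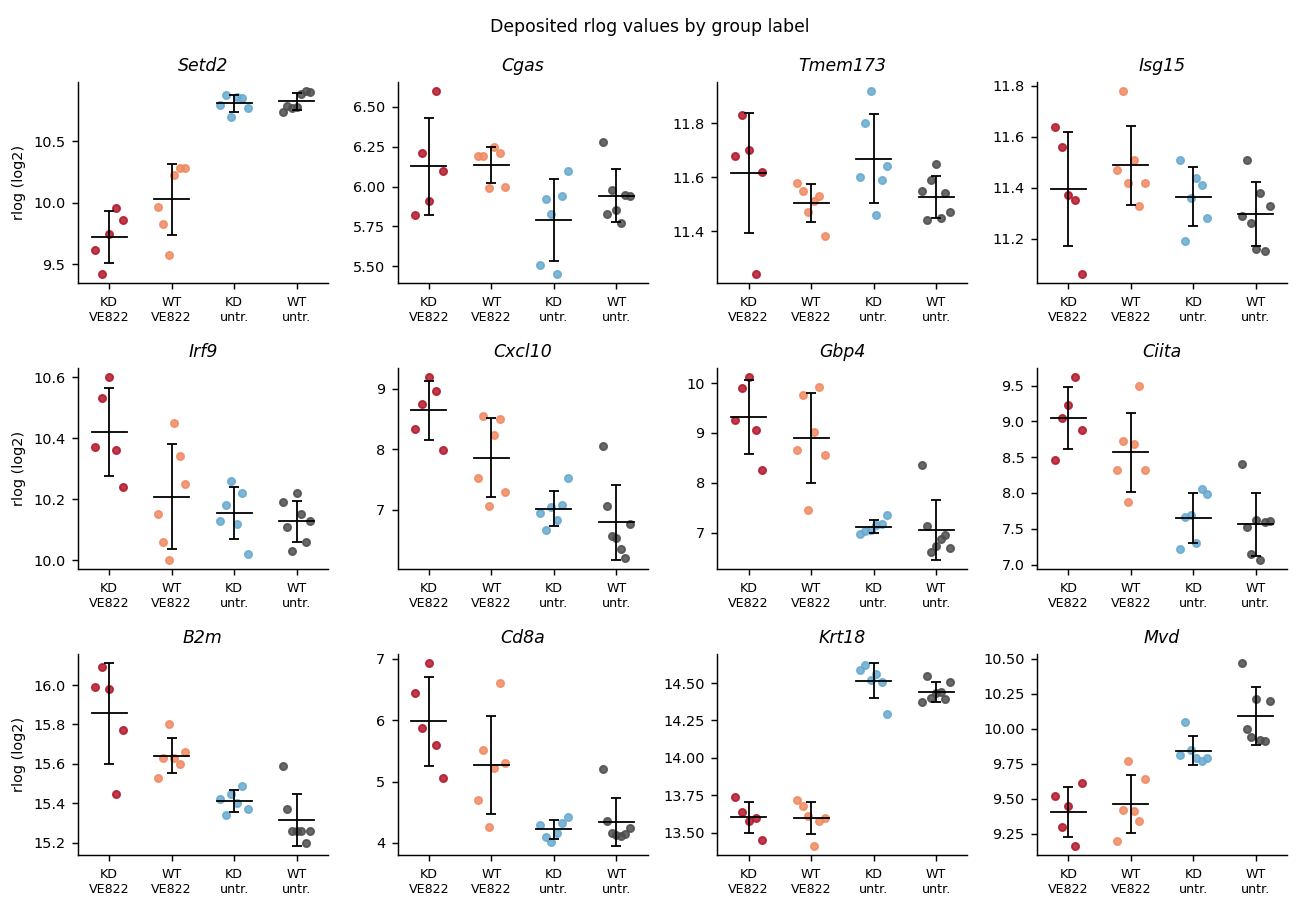
Deposited rlog (log2 units) of 12 genes in the 4 label groups, in the order SETD2 KD VE822 (n = 5), WT VE822 (n = 6), SETD2 KD untreated (n = 6) and WT untreated (n = 7), with the mean (bar) and SD (whisker). Axes do not start at 0 and differ between panels. Setd2 and Krt18 are low in both VE822 groups, Cgas, Tmem173 and Isg15 overlap across groups, Irf9, Cxcl10 and Gbp4 are highest on average in SETD2 KD VE822, and 1 WT untreated library is high for Cxcl10, Gbp4, Ciita and Cd8a.

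Antigen presentation genes were called higher in both classes, but less evenly across libraries in class I. Of 21 MHC class I genes tested, 14 were higher and 0 lower with a median of 0.36, against 12.1% and 12.4% of all genes. The groups did not overlap for 1 of the 21, against 3.99% of all genes on this side. The class I list mean was 12.24, 12.34, 12.24, 11.67 and 11.87 in SETD2 KD VE822, against 11.62 to 11.93 in WT untreated. Replicates 4 and 5 thus lay inside the WT untreated range. Leaving out SETD2 KD VE822 libraries 1 at a time gave 7 to 20, the fewest without replicate 2 and the most without replicate 4. B2m, the light chain shared by class I molecules, was 15.99, 16.09, 15.98, 15.45 and 15.77, against 15.20 to 15.59, and rose by 0.54 ± 0.09. Erap1, the peptide-trimming aminopeptidase, rose by 0.37 ± 0.07, H2-Q4 by 0.39 ± 0.09 and H2-Q6 by 0.67 ± 0.17. The classical and Qa region genes resemble one another, so reads may be split between them.

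Of 11 class II genes, 10 were higher (90.9%, against 12.1% of all genes) with a median of 1.00. Ciita, the transactivator of class II genes, was 8.46, 9.05, 9.23, 9.62 and 8.88, against 7.06 to 8.41 (median 7.59), and rose by 1.48 ± 0.24 (adjusted p = 9.89e-05). H2-Eb1, a class II beta chain, rose by 1.30 ± 0.25, Cd74, the invariant chain, by 1.00 ± 0.19 and H2-DMb2, of the peptide editor, by 0.96 ± 0.17. For 9 of the 11 genes the groups did not overlap, against 3.99% of all genes on this side. Replicate 4 was the highest SETD2 KD VE822 library for Ciita, whereas it was the lowest for B2m.

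T cell and NK cell markers were mostly higher. Of 21 T cell genes, 19 were higher and 0 lower with a median of 0.94, against 12.1% of all genes higher. With a mean rlog of at least 5, which tests fewer of the 21, the count higher was 10. For 14 of the 21 all 5 libraries lay above all 7, against 3.99% of all genes. Cd8a, the co-receptor of cytotoxic T cells, was 6.45, 5.87, 6.93, 5.59 and 5.06, against 4.12 to 5.20 (median 4.17), a rise of 1.64 ± 0.30 (adjusted p = 0.000358). Its lowest SETD2 KD VE822 library, replicate 5, fell below WT untreated replicate 1 at 5.20. Cd3g, of the T cell receptor complex, rose by 1.42 ± 0.21 and Lck, the kinase of that complex, by 0.56 ± 0.09.

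All 11 cytotoxic and NK cell genes tested were higher, with a median of 0.64, against 12.1% of all genes. A further 5 listed genes were below the filter. The filter averages all 24 libraries, so members near it, such as Ncr1 (mean rlog 3.085), can pass through higher VE822 values. With a mean rlog of at least 5, which tests fewer of these genes, the count higher was 1. Nkg7, a cytotoxic granule protein, was 5.08 to 6.05 (median 5.66), against 3.87 to 4.78 (median 4.06) in WT untreated, and rose by 1.45 ± 0.24. Prf1, perforin, rose by 0.86 ± 0.18, Klrd1, an NK receptor chain, by 0.68 ± 0.12 and Klrb1c, which encodes NK1.1 in some strains, by 0.53 ± 0.09. In WT VE822 8 of the 11 were called higher.

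Of 20 checkpoint genes, 14 were higher (70.0%, against 12.1% of all genes) with a median of 0.47. Cd276, the B7-H3 ligand, was 10.25, 10.36, 10.19, 10.34 and 10.50, against 9.36 to 9.75, and rose by 0.78 ± 0.09 (adjusted p = 2.54e-06). Pdcd1lg2, the gene for the PD-L2 ligand, rose by 0.80 ± 0.15, Tnfrsf18, which encodes GITR, by 0.81 ± 0.16 and Nectin2, a ligand of TIGIT, by 0.40 ± 0.07. Cd274, the gene for PD-L1, was 10.41, 10.27, 10.55, 10.13 and 9.95, against 9.77 to 10.32, and was not called (0.22 ± 0.11, adjusted p = 0.174). The 2 ligands of PD-1 thus gave different calls here, and their difference was not tested.

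Chemokines outside the interferon-gamma list gave 7 higher and 2 lower of 25, against 12.1% and 12.4% of all genes. Ccr7, the lymph node homing receptor, rose by 1.09 ± 0.17, Cxcr6, a receptor of resident T cells, by 1.07 ± 0.19, Ccl5, a T cell attractant, by 1.02 ± 0.23 and Ccl17, a dendritic cell chemokine, by 0.88 ± 0.18. Dendritic cell markers gave 8 higher (57.1%) and 0 lower of 14, against the same shares of all genes. They were led by Itgax, the CD11c integrin (1.07 ± 0.19), and Xcr1, a marker of cross-presenting cells (0.83 ± 0.19). Of 6 B cell genes tested, 3 were higher and 2 lower, again against 12.1% and 12.4% of all genes. Cd22, an inhibitory receptor of B cells, rose by 0.93 ± 0.13 and Sdc1, a syndecan that plasma cells share with epithelium, fell by 0.20 ± 0.05. Cd79a, a chain of the B cell receptor complex named after its values were seen, fell by 0.74 ± 0.27 (adjusted p = 0.0482), with 7.24 in replicate 4 and 9.42 to 9.92 in the others, against 9.56 to 10.07 in WT untreated. Ms4a1, a defining B cell gene, was below the filter. The count of lower B cell genes was 1 without SETD2 KD VE822 replicate 5 or any of WT untreated replicates 2 to 7.

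Not all immune lists rose. Of 19 macrophage genes 0 were higher and 2 lower (10.5%, against 12.4% of all genes). These were Cd163, already named, at 10.65, 9.89, 10.27, 9.72 and 10.51, against 10.94 to 11.92 (median 11.60), and Cd14, the lipopolysaccharide co-receptor, which fell by 0.47 ± 0.07. Of 8 neutrophil genes tested, 0 were called in either direction at this spread, with Mmp9, a gelatinase, ranging from 7.26 to 9.05 in SETD2 KD VE822 and from 7.36 to 9.12 in WT untreated. The mast cell tryptase Tpsab1 was 9.30, 8.14, 8.12, 5.05 and 9.34, against 4.82 to 5.76, a rise of 2.87 ± 0.45, or 3.61 without replicate 4. Tpsb2, a second tryptase of similar sequence, rose by 1.39 ± 0.28, whereas Kit and Hdc, which mast cells also express, were not called.

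Of 20 fibroblast and collagen genes 0 were higher and 2 lower (10.0%, against 12.4% of all genes). These were Fn1, fibronectin, at -0.86 ± 0.15 and Fbln1, fibulin, at -0.55 ± 0.07. In WT VE822 9 of these 20 were higher and 1 lower, with a median of 0.85 against 0.24 in SETD2 KD VE822. Vwf, the endothelial clotting factor, rose by 1.54 ± 0.21, with 8.47 in replicate 4 and 9.74 to 9.99 in the others. It was the 1 endothelial gene of 15 called higher (6.67%, against 12.1% of all genes). Esam, an endothelial adhesion molecule, fell by 0.38 ± 0.13, a call that was lost without SETD2 KD VE822 replicate 2, 3 or 5 or WT untreated replicate 1.

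Of 17 skeletal muscle genes 0 were called. Their mean rlog was 4.55 to 4.86 in SETD2 KD VE822, 4.80 to 8.49 in WT VE822 and 4.60 to 6.11 in WT untreated, so muscle RNA varied most among WT VE822 libraries. Of 10 adipocyte genes 1 was higher (10.0%, against 12.1% of all genes), Lep, the leptin gene, at 0.55 ± 0.12. Red cell genes gave 1 higher of 6 (16.7%), Slc4a1, the anion exchanger, at 0.97 ± 0.32, with replicate 4 at 6.79 and the others at 9.04 to 9.40. The 1 keratinocyte gene tested of 10 listed, Trp63, was not called.

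**Figure D4:**
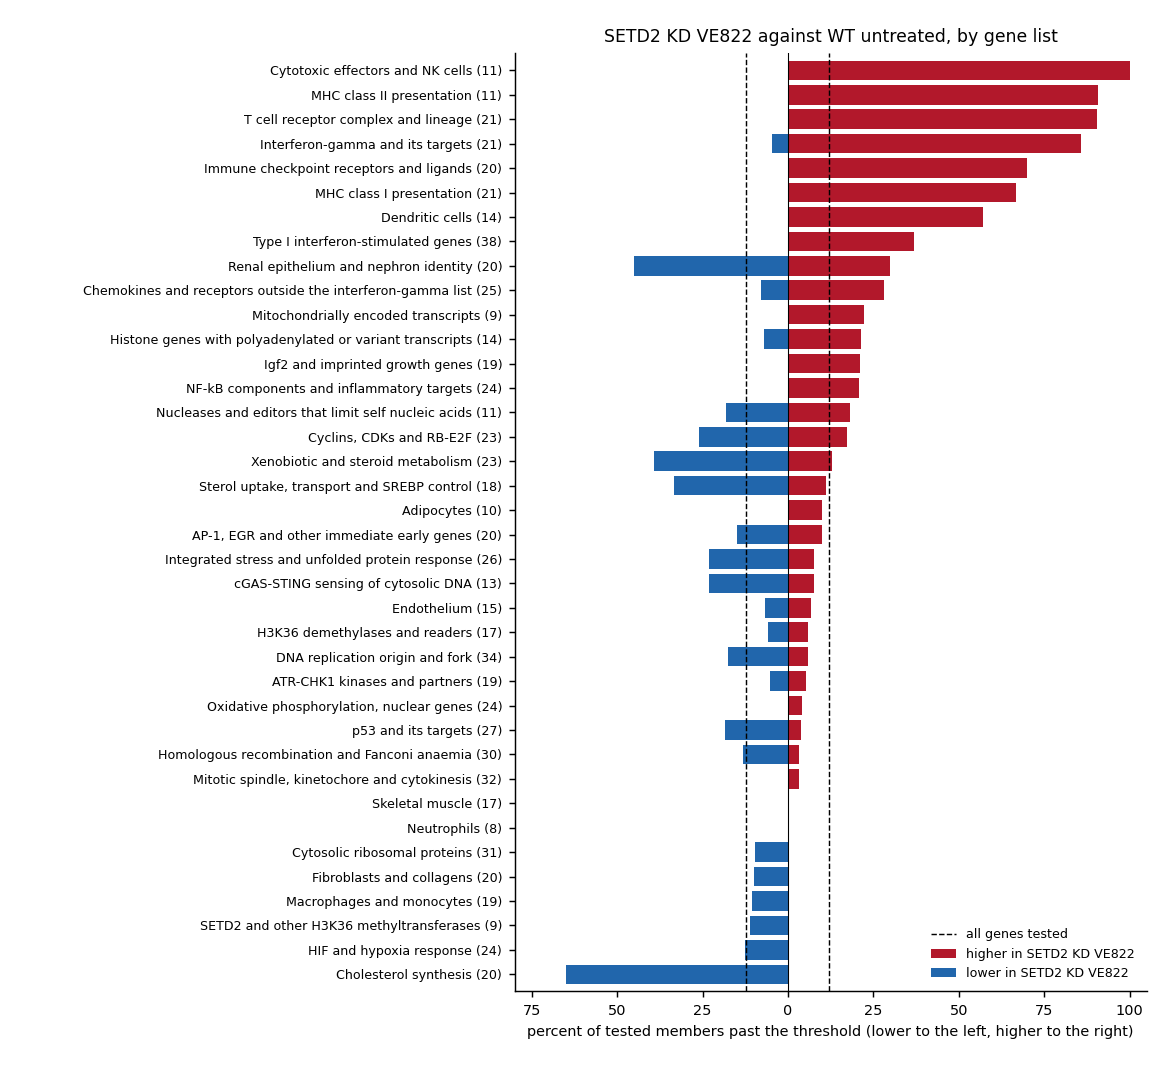
Percent of the tested members of each gene list that passed the threshold higher (red, to the right) or lower (blue, to the left) in SETD2 KD VE822 against WT untreated, for lists with at least 8 tested members, whose number is in brackets. Dashed lines mark the percent over all genes, 12.1% higher and 12.4% lower. Cytotoxic, MHC class II, T cell and interferon-gamma lists reach furthest right, and cholesterol synthesis reaches furthest left.

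Cholesterol synthesis was the list with the largest share of falls. Of 20 enzymes, 13 were lower (65.0%, against 12.4% of all genes) and 0 higher with a median of -0.43. For 10 of the 20 the groups did not overlap, against 4.89% of all genes. Mvd, the mevalonate diphosphate decarboxylase, was 9.52, 9.30, 9.45, 9.16 and 9.61, against 9.91 to 10.47 (median 10.00), and fell by 0.69 ± 0.10 (adjusted p = 3.22e-05). Sqle, the squalene epoxidase, was 12.80, 12.69, 12.98, 12.69 and 12.88, against 13.22 to 13.49, and fell by 0.53 ± 0.08. Lss, the lanosterol synthase, fell by 0.49 ± 0.10 and Mvk, the mevalonate kinase, by 0.43 ± 0.07. All 5 libraries moved, replicate 4 included.

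In WT VE822 16 of the 20 cholesterol synthesis genes were lower with a median of -0.49. The difference between SETD2 KD VE822 and WT VE822 was called for 0 of the 20. It was positive for 14, against 7823 of the 15916 genes tested.

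Of 18 genes of sterol uptake, transport and control, 2 were higher (11.1%) and 6 lower (33.3%), against 12.1% and 12.4% of all genes. Srebf2, the transcription factor that drives cholesterol genes, was 13.52, 13.48, 13.57, 13.70 and 13.56, against 13.90 to 14.15, and fell by 0.43 ± 0.06. Scap, its escort protein, fell by 0.20 ± 0.05 and Stard4, a sterol carrier, by 0.80 ± 0.10. Npc2, a lysosomal sterol carrier, was 0.29 ± 0.07 higher.

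Promoters of both sterol lists were searched for the sterol response element letters TCACCCCAC on either strand, because Srebf2 encodes the factor that binds this element. The windows run from 250 bases before to 50 after each RefSeq gene start (GRCm38.p6). Of the 38 sterol genes tested, 27 had a promoter in that table and 1 of them held the letters, Hmgcs1, against 0.614% of the 27025 genes in the table. Hmgcs1, an early enzyme of the mevalonate pathway, fell by 0.27 ± 0.08 (adjusted p = 0.017). The match, in capitals, begins 137 bases upstream of the start at chr13:119690101-119690400 on the plus strand. A match describes letters only, and absence of a match says nothing about the factor at the other 26 promoters.
Hmgcs1: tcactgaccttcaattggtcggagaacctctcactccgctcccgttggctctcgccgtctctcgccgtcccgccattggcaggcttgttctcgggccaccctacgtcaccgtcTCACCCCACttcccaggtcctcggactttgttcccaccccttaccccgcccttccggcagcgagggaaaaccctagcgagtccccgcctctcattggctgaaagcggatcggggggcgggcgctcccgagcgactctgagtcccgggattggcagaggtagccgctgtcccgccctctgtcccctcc

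Renal epithelial identity genes moved in both directions, 6 higher and 9 lower of 20, against 12.1% and 12.4% of all genes. Krt18, a simple-epithelium keratin, was 13.74, 13.64, 13.58, 13.60 and 13.45, against 14.37 to 14.55 (median 14.43), and fell by 0.84 ± 0.06 (adjusted p = 1.46e-09). Its partner Krt8 fell by 0.56 ± 0.06 and Emx2, a nephric transcription factor, by 0.48 ± 0.06. Epcam, an epithelial adhesion molecule, was 6.94, 7.34, 6.63, 7.88 and 7.02, against 5.42 to 6.37, and rose by 1.26 ± 0.19. Umod and Slc22a6, markers of mature tubule segments, are listed at 0 in every mouse library. Trex1, a nuclease gene expressed in many cell types, is listed at 0 as well, so a listed 0 is not read here as lack of expression. Of 23 xenobiotic and steroid metabolism genes 3 were higher and 9 lower, against the same shares of all genes. Among them were the enzymes already named.

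The ATR-CHK1 list changed little, with 1 higher and 1 lower of 19 (5.26% each, against 12.1% and 12.4% of all genes). Atr, the target of VE822, was 9.13, 8.98, 9.30, 9.31 and 9.08, against 8.90 to 9.25 (0.05 ± 0.09, adjusted p = 0.731), and Chek1 differed by -0.10 ± 0.09 (adjusted p = 0.478). Cdc25a, the phosphatase that CHK1 restrains, was 9.05, 9.20, 9.23, 9.08 and 9.37, against 8.80 to 8.93, and rose by 0.34 ± 0.06 (adjusted p = 0.000206). Rpa1, a subunit of the single-strand DNA binding complex, fell by 0.26 ± 0.08, a call that was lost without SETD2 KD VE822 replicate 4 and without WT untreated replicate 3 or 4.

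Cell cycle lists held small changes in both directions. Of 34 replication genes 2 were higher (5.88%) and 6 lower (17.6%), against 12.1% and 12.4% of all genes. Cdc45, of the replicative helicase, rose by 0.48 ± 0.05 (adjusted p = 7.65e-07), and the helicase subunits Mcm4 and Mcm5 each fell by 0.29, with standard errors of 0.04 and 0.05. Of 23 cyclin and E2F genes 4 were higher (17.4%) and 6 lower (26.1%). Ccne1, cyclin E, rose by 0.41 ± 0.06, and the inhibitor genes Cdkn2b and Cdkn2a fell by 0.53 ± 0.07 and 0.43 ± 0.06. Myc fell by 0.46 ± 0.10. Of 30 homologous recombination genes 1 was higher (3.33%) and 4 lower (13.3%), all by under 0.3. Of 32 mitotic genes 1 was higher (3.12%), Birc5, survivin, at 0.23 ± 0.08.

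Of 27 p53 target genes 1 was higher (3.7%) and 5 lower (18.5%), against 12.1% and 12.4% of all genes. Without replicate 4 the count higher was 5. Cdkn1a, the p21 gene, was 12.63, 12.48, 12.41, 11.59 and 12.34, against 11.50 to 12.32 (median 12.04), and was not called (0.33 ± 0.16, adjusted p = 0.132). Without replicate 4 its difference was 0.51 and was called (adjusted p = 0.00636). Fas, the death receptor, rose by 0.41 ± 0.12, with replicate 4 again lowest at 7.06. Sesn1, a stress-induced regulator of growth signalling on chromosome 10, fell by 0.84 ± 0.12. Trp53 was not called (-0.04 ± 0.07).

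Stress and signalling lists showed no common direction. Of 26 genes of the integrated stress and unfolded protein response 2 were higher (7.69%) and 6 lower (23.1%). Pdia6, a chaperone of the endoplasmic reticulum, rose by 0.33 ± 0.06, and Ddit4, an inhibitor of mTOR signalling, fell by 0.52 ± 0.08. Of 24 NF-kB genes 5 were higher (20.8%, against 12.1% of all genes) and 0 lower. The largest rise was that of Icam1, the leukocyte adhesion ligand, at 0.73 ± 0.14. Of 24 hypoxia genes 3 were lower (12.5%, against 12.4% of all genes). Among them was Adm, adrenomedullin, at -1.08 ± 0.29, which was lowest in replicate 4 at 8.81. Immediate early genes gave 2 higher and 3 lower of 20, with 1 to 5 lower when 1 library was left out, 1 without SETD2 KD VE822 replicate 2 and 5 without its replicate 1 or 4 or WT untreated replicate 6.

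The list of Igf2-related and imprinted growth genes gave 4 higher of 19 (21.1%, against 12.1% of all genes). Among them were Igf2, its receptor Igf2r (0.42 ± 0.10) and Igf2bp3, an RNA-binding protein of Igf2 mRNA (1.55 ± 0.24). Igf2bp3 was 7.31, 6.70, 7.24, 5.10 and 7.12, against 4.91 to 5.33. Replicate 4 alone lay inside the WT untreated range for Igf2bp3, whereas for Igf2 it lay just above that range. Histone genes gave 3 higher (21.4%) and 1 lower (7.14%) of 14, against 12.1% and 12.4% of all genes, with 6 higher without replicate 4. Ribosomal protein genes gave 0 higher and 3 lower (9.68%) of 31. The lower count was 0 without SETD2 KD VE822 replicate 3 or 5 or WT untreated replicate 5. It was 5 without SETD2 KD VE822 replicate 1, and 0 with chromosome medians removed. Nuclear oxidative phosphorylation genes gave 1 higher (4.17%) and 0 lower of 24, and mitochondrially encoded transcripts 2 (22.2%) and 0 of 9. Readers and erasers of H3 lysine 36 methylation gave 1 and 1 of 17 (5.88% each), Dnmt3a (0.26 ± 0.08) and Msh6 (-0.19 ± 0.06).

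The 2 genes that separated SETD2 KD VE822 from WT VE822 were Fmod and Mfsd12. Fmod, the proteoglycan fibromodulin, was 7.27, 7.63, 7.60, 7.18 and 7.50 in SETD2 KD VE822, against 8.40, 8.99, 8.54, 9.25, 9.38 and 9.73 in WT VE822, a difference of -1.61 [-2.06, -1.16] (adjusted p = 0.00236). The groups did not overlap. In WT untreated Fmod was 7.25 to 8.17, so 4 of the 5 SETD2 KD VE822 libraries lay within that range and replicate 4 just below it (-0.29 ± 0.21, adjusted p = 0.363), while the WT VE822 libraries lay above it. With only the groups compared in the fit, neither Fmod nor Mfsd12 was called, and Mfsd12 was also not called with quantile normalisation or with chromosome medians removed.

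Mfsd12, a transporter of lysosomes and melanosomes, was 11.88 to 12.08 in SETD2 KD VE822, with the top value in replicate 4. It was 11.50 to 11.73 in WT VE822 and 11.57 to 11.76 in WT untreated. The difference from WT VE822 was 0.32 [0.22, 0.42] (adjusted p = 0.00523) and that from WT untreated 0.34 ± 0.05 (adjusted p = 1.44e-05). All 5 libraries lay above those of both groups, although chromosome 10, where Mfsd12 lies, was lower as a whole in 4 of the 5. Fn1 came next among the named genes, at -0.82 [-1.13, -0.50] (adjusted p = 0.0535).

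Whole chromosomes also differed. Each gene's rlog was set against its WT untreated mean, and the median over a chromosome's genes was taken in each library, relative to the same median over all chromosomes, using genes whose mean rlog reached 8. An exact two-sided permutation test over samples, with 792 arrangements of the group labels and adjustment over 20 chromosomes, called 8 of them, 5 higher and 3 lower. The smallest p this test allows is 0.00126. Setting genes against the WT untreated mean draws the WT untreated values towards 0, so the test was repeated with each gene set against its mean over all 12 libraries, which does not depend on the labels. That repeat, chosen after seeing the data, called 9 chromosomes, with 3, 4, 5, 9, 11 and 17 higher and 8, 10 and 15 lower. Without WT untreated replicate 1 it called chromosome 10 (adjusted p = 0.0379) and not chromosome 17 (adjusted p = 0.0577). Chromosome 8 was lower by 0.12, with all 5 libraries between -0.14 and -0.10 and WT untreated between -0.05 and 0.09 (adjusted p = 0.00631), and 80.8% of its 553 genes were lower on average. Chromosome 15 was lower by 0.06.

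Chromosome 10 was lower by 0.16 (adjusted p = 0.0284), at -0.21, -0.22, -0.23, 0.06 and -0.19 in replicates 1 to 5, against -0.01 to 0.01 in WT untreated. Replicate 4 alone was not lower, and without it the difference was -0.21. Without WT untreated replicate 1 the calls of chromosomes 10 and 17 were both lost (adjusted p = 0.0541 each). Chromosome 6 stood at 0.15, 0.16, 0.18, -0.11 and 0.12, against -0.09 to 0.03. It was not called with all libraries (0.10, adjusted p = 0.129) and was called without replicate 4 (0.15, adjusted p = 0.00673). Chromosomes 2 and 12 were then also called, each lower by 0.03. The 5 chromosomes called higher, 4, 5, 9, 11 and 17, differed by 0.02 to 0.05 relative to the median over all chromosomes. On them 50.1%, 49.9%, 48.1%, 44.9% and 44.5% of genes were lower on average. On 4, 5 and 9 about as many genes were thus lower as higher, and the call is relative to the other chromosomes. These shifts are small beside the leading single-gene differences. Removing them ended the calls of Slc19a1, Tbk1 and the primase gene Prim1 on chromosome 10 and of Zdhhc1 and Rnaseh2a on chromosome 8. DNA copy number was not measured here.

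**Figure D5:**
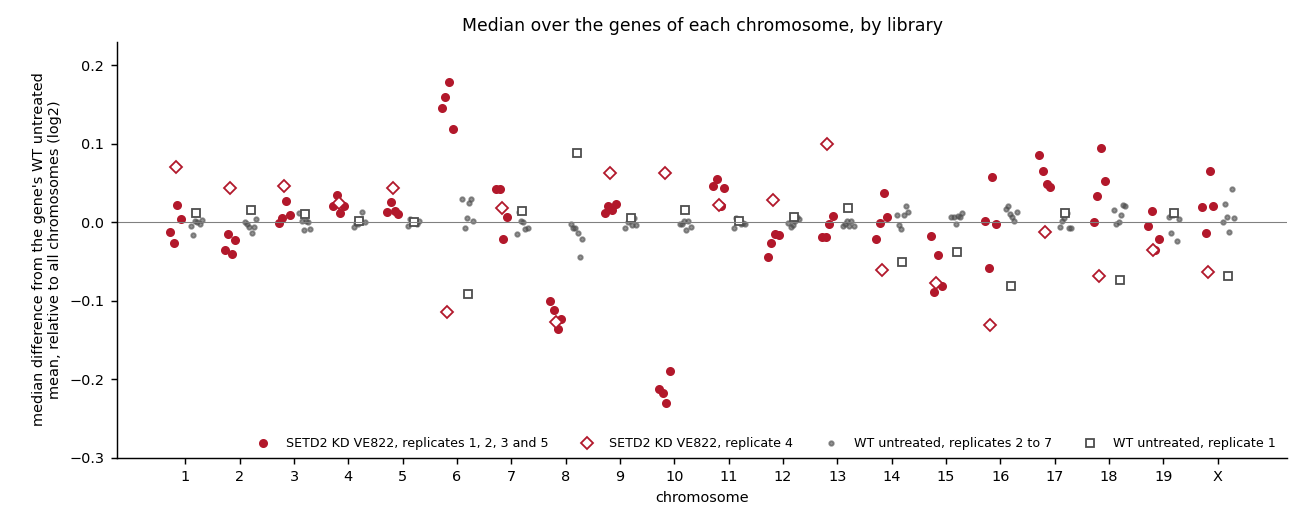
Median over the genes of each chromosome of the rlog minus the gene's WT untreated mean, relative to all chromosomes (y axis, log2 units), in each library. Filled red points are SETD2 KD VE822 replicates 1, 2, 3 and 5, the open diamond is replicate 4, grey points are WT untreated and the open square is its replicate 1. On chromosome 8 all 5 SETD2 KD VE822 libraries lie below 0, on chromosome 10 the diamond stands apart near 0.06 while the other 4 lie near -0.2, and on chromosome 6 the diamond lies at -0.11 while the other 4 lie above 0.1.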

How the data were processed

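RNA-seq of subcutaneous Renca tumours was analysed from the table of regularised log values (rlog, log2 scale) that the authors deposited, with 46078 gene rows and 24 mouse libraries. FastQC, TopHat, HTSeq, DESeq2 and the builds hg38 and GRCm38 are named per the submitters' processing notes, without roles. Raw counts were not used here, so library depth is unknown and intervals for counting error could not be computed. Of the rows, 16906 were 0 throughout, and 97.97% of all rows and 99.59% of the 15916 tested matched GENCODE vM21 by gene ID.

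Groups were taken from the labels. One limma model (version 3.58.1, R 4.3.3) of 4 group means with a variance trend was fitted over the 24 libraries for genes with a mean rlog of at least 3, with Benjamini-Hochberg adjustment over the 15916 genes and a threshold of 0.05. The procedure was tested on simulated data. Tables and plots were made with Python 3.11.15, numpy 2.4.6, pandas 2.3.3 and matplotlib 3.10.9. Chromosome medians were compared by an exact permutation test.

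The comparison and the gene lists were chosen with earlier results of these data known. Named genes were the 15 largest rises and the 15 largest falls among called protein-coding genes whose groups did not overlap, the largest calls against WT VE822, the 4 members of each list with the smallest p, and a set of pathway genes such as Setd2, Atr, Cgas, Igf2 and Cd8a. Some members of these lists are not reported here. Members outside this rule are named only for list membership, a filter or a promoter match. Alternatives changed the samples in the fit, the filter, the variance model, library weights and scaling. They also left out each SETD2 KD VE822 and each WT untreated library in turn. Leaving out both libraries that stand apart, and centring genes on all 12 libraries for the chromosome medians, were added after seeing the data.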

Additional observations from a re-analysis of the deposited data

Results flagged for a closer look

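A gap test of the highest and lowest library was applied to 492 groups of values and marked 57, where chance marks about 1 in 20. Of the 57, 25 came from SETD2 KD VE822 replicate 4 and 22 from WT untreated replicate 1. Values below are rlog, with the range of the other libraries of the same group in words or numbers.

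In SETD2 KD VE822, replicate 4 was far below the other 4 libraries for leading rises. It stood at 6.37 for Igf2 (others 10.82 to 11.35), 5.41 for Aoc1, 7.44 for Kif1a, 5.44 for Cd28, 6.47 for Ppargc1a, 7.92 for Ndufa4l2 and 4.63 for Abca13. It was also lowest for Tpsab1 at 5.05, Vwf at 8.47, Igf2bp3 at 5.10, Ccr7 at 8.33, Nectin2 at 10.35 and Rnaseh2c at 8.62. Among genes of other lists it was lowest for Cdkn1a at 11.59, Fas at 7.06, Cycs at 10.70, the red cell gene Slc4a1 at 6.79, the muscle gene Myl1 at 6.99 (others 9.09 to 9.48) and the leading fall Chrdl2 at 8.67. The same library was highest for Ifngr1 at 12.34, Cd22 at 7.89, Thy1 at 11.04 (others 9.33 to 9.72), Prim1 at 10.18 and Rad51d at 9.43, and for the mean of the dendritic cell list at 7.23. Its low values thus cover genes of several tissues and its high values include the fibroblast and T cell marker Thy1. Myl1, not called with it, was called without it (1.26, adjusted p = 7.76e-06). What sets this library apart was not tested.

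In WT untreated, replicate 1 was highest for immune genes. It stood at 8.97 for Cxcl9 (others 6.32 to 6.65), 8.36 for Gbp4, 10.26 for Zbp1, 6.28 for Cgas, 8.41 for Ciita, 5.20 for Cd8a, 4.78 for Nkg7, 3.36 for Klrd1, 4.09 for Cxcr6 and 4.66 for Xcr1. The list means showed the same, at 9.61 for interferon-gamma genes, 5.47 for T cell genes and 3.91 for cytotoxic and NK cell genes. It was also highest for Thy1 at 9.92, the endothelial gene Egfl7 at 8.18, Mvk at 9.99 and mt-Atp6 at 8.46, and lowest for Avil at 11.68, Ptprr at 6.69, Myl1 at 7.37, Stard4 at 11.45 and Cycs at 10.88. Because it is a WT untreated library, its high immune values narrow the differences given for those genes.

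The remaining marks were scattered. SETD2 KD VE822 replicate 5 was lowest for Zbp1 at 9.59 and for the cGAS-STING list mean at 9.50 and highest for Nfkb2 at 11.66, and replicate 3 was lowest for Mmp9 at 7.26. WT untreated replicate 2 was highest for Mmp9 at 9.12 and Hdc at 7.55. Replicate 4 of WT untreated was highest for Itgam at 12.14 and for the muscle list mean at 6.11, and replicate 6 was lowest for Nsd3 at 11.06 and highest for Birc5 at 11.09.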

How the results depend on the processing

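The counts for SETD2 KD VE822 against WT untreated stayed within 1.5 times the values given under every alternative run, with 1517 to 2782 higher and 1474 to 2868 lower. Leaving out 1 library at a time gave 1517 to 2573 higher and 1552 to 2546 lower, the most without SETD2 KD VE822 replicate 4, and leaving out both libraries that stand apart gave 2500 and 2446. Against SETD2 KD untreated, library weights gave 2554 higher, and leaving out 1 library gave 1365 to 2226. Against WT VE822, genes higher numbered 0 with only the groups compared or with quantile normalisation, and 2 with no filter, library weights, chromosome medians removed or both libraries left out. Genes lower numbered 0 with only the groups compared, 2 with no filter and 4 with chromosome medians removed. Leaving out 1 SETD2 KD VE822 or WT untreated library gave 1 to 12 in each direction, with 12 and 12 without SETD2 KD VE822 replicate 1. The interaction gave 0 genes by limma in every setting run. No WT VE822 or SETD2 KD untreated library was left out. How these comparisons depend on single libraries of those groups was therefore not tested. Chromosomes called numbered 7 with genes of mean rlog of at least 5, 9 with genes centred on all 12 libraries, and 6 to 11 leaving out 1 library. Of 203 named genes 151 were called and 121 of these lost the call in no setting in which they were tested (a mean rlog of at least 5 keeps 139 of the 151). Calls near the threshold that were lost in several settings include Birc5, Cycs, Esam, Ifnar1, Mre11a, Rnaseh2b, Slc4a1 and Slx4. List counts of 1 to 5 often moved by over 1.5 times when 1 library was left out. Homologous recombination genes lower numbered 0 without SETD2 KD VE822 replicate 5, p53 genes lower 2 without replicate 2 or 5, and macrophage genes lower 4, sterol uptake genes higher 5 and neutrophil genes higher 2 without replicate 4. Mitotic genes higher numbered 0 to 4 and oxidative phosphorylation genes higher 0 to 3, hypoxia genes lower 2 to 5, and replication genes higher 1 to 4, the top values without SETD2 KD VE822 replicate 4 (oxidative phosphorylation), replicate 1 (hypoxia) and WT untreated replicate 6 (mitotic and replication). With chromosome medians removed Nsd3 turned to 0.04, Tbk1 to 0.02 and Ifnar2 to 0.01, and with 1 library left out the uncalled globin genes ran from -0.437 to 0.025 (Hba-a2) and from -0.506 to 0.029 (Hbb-bs), the positive values without SETD2 KD VE822 replicate 3. The cause was not tested, other than for chromosome medians, where the shift of the chromosome is what was removed. No paired analysis was possible because the labels number the animals separately in each group. The rlog transform shrinks weakly counted genes, so their differences are understated, and depth is unknown.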

Other observations

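Long non-coding transcripts were called higher more often than lower, by annotation class in GENCODE vM21. Over all genes 12.1% were called higher and 12.4% lower. Of 372 lincRNA genes tested 70 were higher and 22 lower, and of 236 processed transcripts 38 were higher and 10 lower. Antisense genes gave 62 higher and 29 lower of 450. Protein-coding genes gave 1680 higher and 1866 lower of 13460. Raising the filter to a mean rlog of at least 5 changed the calls over all genes from 1922 to 1532 higher and from 1968 to 1923 lower. The calls lost with weakly counted genes were thus mostly rises. Annotation classes were not compared at matched levels, so class and level cannot be told apart here. Whether these transcripts come from their own promoters or from unspliced or antisense reads cannot be read from the table, since how strands were counted is not given in the sources used here.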
